A study of Oryza sativa Japonica Group with 17 samples.

Results

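iMs (i-motifs) are folded structures of C-rich DNA that are held together by intercalated base pairs between a protonated and an unprotonated cytosine, so acidic pH favours their folding. Methylation of cytosine can change how readily an iM forms, and the effect is known to depend on which cytosines are methylated. To compare the iM landscapes of DNA with gained and with lost methylation at the same pH, the iM peaks of hypermethylated and demethylated rice DNA at pH 7.0 were set against each other. A peak of a condition was used when it was called against input and overlapped a peak called against IgG in the same condition by at least 1 bp, and is here called a common peak. Hypermethylated DNA had 67787 common peaks and demethylated DNA had 73109, together 140896 of the 354589 common peaks of the 5 conditions in the series. A common peak was shared when it overlapped a common peak of the other condition by at least 1 bp and specific otherwise.

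All DNA came from seedlings of Nipponbare (Oryza sativa, Japonica), and iMs were captured with the iMab antibody by iM-IP-seq after the purified DNA had been refolded in vitro, so no chromatin was present. Hypermethylated DNA was genomic DNA treated in vitro with M.CviPI, a methyltransferase that modifies GpC sites, a context that plant methyltransferases do not specifically target. Demethylated DNA came from seedlings treated with zebularine, which inhibits DNA methyltransferases, at 80 µM. The first treatment was thus given to purified DNA and the second to living plants. CK, the reference, was genomic DNA whose methylation had not been altered. Peaks of CK were called against input too, but no CK input library is among the 17 samples of the series. Each pH 7.0 condition had 2 IP libraries, which the authors merged before calling peaks, and 1 IgG library, and each treatment had 1 input library that also served its pH 5.5 IP. Values therefore exist per merged library only, no difference could be tested against the spread between replicates, and the intervals given are 95% Wilson intervals that cover counting error alone. No methylation level was analysed here, so the labels of the libraries could not be checked against one. One label disagreed, since GEO's description of both demethylated IP samples at pH 7.0 points to a hypermethylated list. The demethylated list itself was identified from its file name, which the description of the demethylated input repeats.

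Depth was somewhat lower in hypermethylated DNA. The background coverage, meaning the mean number of IP fragments over the genome as recovered from the lists, was 11.4 in hypermethylated DNA and 14.4 in demethylated DNA. Summits held a median of 63 reads in either set, with a lowest number of 21 and 25 reads in the input-called lists of hypermethylated and demethylated DNA. Divided by background coverage, the median summit was 5.51 times background in hypermethylated DNA and 4.36 times background in demethylated DNA. The lists of both conditions stood apart in their summits. Of the hypermethylated input-called peaks, 51.3% had a summit with the same position and read number in the hypermethylated IgG-called list, compared with 0.0281% in the demethylated IgG-called list. For demethylated input-called peaks these shares were 47.8% in the demethylated list and 0.0198% in the hypermethylated list.

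Most iM peaks were found in both kinds of DNA. Of the hypermethylated common peaks, 55742 (82.2%) were shared and 12045 (17.8%, interval 17.5 to 18.1) were specific. Of the demethylated common peaks, 55962 (76.5%) were shared and 17147 (23.5%, 23.1 to 23.8) were specific. Few peaks lay at the edge of this definition. Only 7 of the 57670 overlapping pairs shared under 10 bp, and 18 hypermethylated-specific and 20 demethylated-specific peaks lay within 50 bp of a common peak of the other set. The typical distance was larger, with a median gap to the nearest common peak of the other set of 1576 bp for hypermethylated-specific peaks and 1780 bp for demethylated-specific peaks. That gap was over 5000 bp for 14.7% of hypermethylated-specific and 16.1% of demethylated-specific peaks.

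Specific peaks were the weaker and narrower part of each set. The median fold enrichment over input was 3.30 in hypermethylated-specific peaks and 2.66 in demethylated-specific peaks, compared with 5.20 and 4.17 in the shared peaks of hypermethylated and demethylated DNA. Summits held a median of 44 reads in hypermethylated-specific and 45 in demethylated-specific peaks, against 70 and 71 in shared peaks. The median width was 288 bp in specific peaks of both sets, and 488 bp and 496 bp in the shared peaks of hypermethylated and demethylated DNA. Among hypermethylated peaks of a fold of 2 to 3, 61.9% were shared, and this share was 99.5% at a fold of 10 or more. Among demethylated peaks it was 51.4% at a fold of 2 to 3 and 100% at a fold of 10 or more. Only 34 hypermethylated-specific peaks and 0 demethylated-specific peaks reached a fold of 10. At the coverage of hypermethylated DNA and the same height relative to background, 98.8% (16945 of 17147) of the demethylated-specific peaks reached the −log10 p-value of the weakest hypermethylated input-called peak. This scaling added no counting noise and left out the IgG step. It therefore cannot tell how many of these peaks would be called at that depth.

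Which side had more specific peaks depended on the peaks admitted. The log2 ratio of hypermethylated-specific over demethylated-specific peaks was -0.51. With a fold of at least 4 in all sets it was 1.93, with 14598 hypermethylated-specific and 3819 demethylated-specific peaks. With peaks whose local control level (lambda) was at most 1.2 times background it was 0.19, with 20824 hypermethylated-specific and 18228 demethylated-specific peaks. This limit kept 82.5% of hypermethylated and 73.2% of demethylated common peaks. Both limits were applied before the overlap, so a peak also counted as specific when its counterpart was filtered out. Without a limit on the counterpart, 3003, 575 and 34 hypermethylated peaks of fold 4 to 6, 6 to 10 and 10 or more were specific. For demethylated peaks these numbers were 1072, 23 and 0. Many specific peaks had a counterpart outside the common set. Of the hypermethylated-specific peaks, 35.2% overlapped a peak in at least 1 of the 2 lists of demethylated DNA, compared with 19.8% of demethylated-specific peaks in hypermethylated DNA. Leaving these out, 7808 hypermethylated-specific and 13757 demethylated-specific peaks had no counterpart in either list.

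Specific peaks of both sets occurred on all 12 chromosomes, and demethylated-specific peaks were the more numerous on each. Hypermethylated-specific peaks numbered 29.2 to 35.4 per Mb and demethylated-specific peaks 42.8 to 50.3 per Mb. The numbers were closest on chromosome 3, with 1251 hypermethylated-specific and 1557 demethylated-specific peaks (log2 ratio -0.32), and furthest apart on chromosome 11, with 846 and 1461 (log2 ratio -0.79). Chromosome 11 had the highest share of specific peaks in demethylated DNA (25.1%) and a low share in hypermethylated DNA (16.3%). In hypermethylated DNA the share of specific peaks was 20.2% on chromosome 1, 20.1% on chromosome 3, 18.9% on chromosomes 2 and 6, and 16.1 to 17.1% on the other 8 chromosomes. In demethylated DNA the share ranged from 21.9% on chromosome 10 to 25.1% and was 24.3% on chromosome 1 and 23.7% on chromosome 3. These are descriptions, since chromosomes are not replicates.

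**Figure D1:**
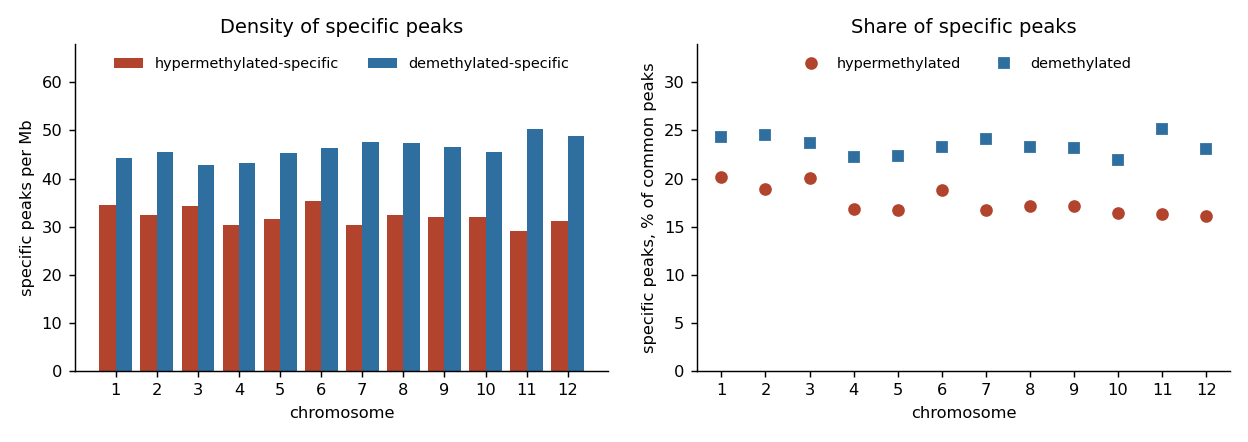
Specific peaks by chromosome. The left panel shows specific peaks per Mb and the right panel specific peaks as a percentage of common peaks, for hypermethylated and demethylated DNA at pH 7.0 (1 merged library each, no error bars). Demethylated DNA is higher on all 12 chromosomes in both panels, with the narrowest gap in density on chromosome 3.

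The share of specific peaks varied with the distance from the chromosome ends in hypermethylated DNA and varied less in demethylated DNA. Within 2 Mb of an end, 19.0% (18.1 to 19.9) of hypermethylated common peaks were specific, compared with 16.0% (15.3 to 16.7) at 12 to 15 Mb. The share was not highest at the ends, since it was 19.9% (19.05 to 20.8) at 4 to 6 Mb, and it was 17.2% (16.2 to 18.1) beyond 15 Mb. These classes of distance pool the chromosomes, and only chromosomes 1, 2, 3, 4 and 6 are long enough to reach beyond 15 Mb. Of these, chromosomes 1, 2, 3 and 6 had the highest shares in hypermethylated DNA, so distance is not separate from chromosome. In demethylated DNA the shares were 24.0% (23.1 to 24.98) within 2 Mb and 23.0% (22.3 to 23.8) at 12 to 15 Mb. Counted the other way, 12.3% (11.7 to 12.9) of hypermethylated-specific peaks had a summit within 2 Mb of an end, against 11.5% of all hypermethylated common peaks. For demethylated-specific peaks it was 11.7% (11.2 to 12.2), against 11.4% of all demethylated common peaks, a share inside that interval. The median distance from the nearer end was 7.83 Mb for hypermethylated-specific and 8.24 Mb for demethylated-specific peaks, and 8.36 Mb and 8.35 Mb for the shared peaks of the hypermethylated and demethylated sets. Chromosomes were taken to end where the last peak of any of the lists ends.

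**Figure D2:**
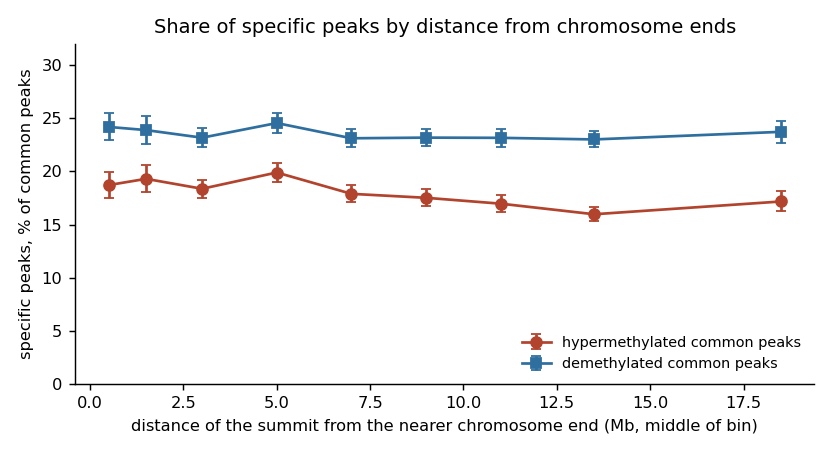
Specific peaks as a percentage of common peaks (y axis) against the distance of the summit from the nearer chromosome end in Mb (x axis, middle of each bin), with 95% Wilson intervals. In hypermethylated DNA the share is highest at 4 to 6 Mb (19.9%) and lowest at 12 to 15 Mb (16.0%), whereas in demethylated DNA it stays between 23.0% and 24.6% in all bins.

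At a finer scale the balance of specific peaks varied between windows, each of which held few specific peaks. The counting error of a window's ratio was not computed, so how much of this range is counting error is not known. Among 375 windows of 1 Mb with at least 30 specific peaks, demethylated-specific peaks were more numerous in 329 and hypermethylated-specific peaks in 39. The window with the highest log2 ratio (1 added to either count) was the last on chromosome 4, from 35 Mb to its end near 35.5 Mb, with 22 hypermethylated-specific and 13 demethylated-specific peaks (0.72). The window from 30 to 31 Mb on the same chromosome followed with 48 and 31 peaks (0.61), and the window from 1 to 2 Mb on chromosome 3 with 33 and 23 (0.50). The lowest ratio was in the window from 3 to 4 Mb on chromosome 9, with 12 hypermethylated-specific and 45 demethylated-specific peaks (-1.82). The windows from 15 to 16 Mb on chromosome 7, with 16 and 58 peaks (-1.80), and from 0 to 1 Mb on chromosome 10, with 18 and 56 peaks (-1.58), came next. Both extremes thus included a window at a chromosome end. Hypermethylated-specific peaks were more numerous in 17 of the 122 windows centred under 5 Mb from an end and in 22 of the 253 windows further inside.

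Specific peaks lay further from their neighbours than shared peaks did, and more often next to one another. The median gap to the nearest common peak of the same condition was 1566 bp for hypermethylated-specific and 1124 bp for hypermethylated shared peaks. It was 1517 bp for demethylated-specific and 1057 bp for demethylated shared peaks. The nearest common peak was itself specific for 22.4% (21.6 to 23.1) of hypermethylated-specific peaks, against 16.2% (15.9 to 16.5) of hypermethylated shared peaks. It was specific for 27.6% (26.9 to 28.2) of demethylated-specific peaks, against 20.8% (20.5 to 21.1) of demethylated shared peaks. Most specific peaks still stood alone between shared ones, at 62.1% in hypermethylated and 53.4% in demethylated DNA. Runs of 4 or more consecutive specific peaks held 4.18% of hypermethylated-specific and 7.17% of demethylated-specific peaks. Of all common peaks, 17.8% were specific in hypermethylated and 23.5% in demethylated DNA. A higher share by itself leaves fewer single peaks and more runs, so the difference between the sides is not separate from these shares.

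The longest runs mark stretches with iM peaks in only 1 of the 2 common sets. On chromosome 12, from 7217797 to 7244528, 8 hypermethylated-specific peaks with 27 to 85 summit reads followed each other, of which 3 had a CK common peak, 2 overlapped a demethylated IgG-called peak and 0 a demethylated input-called one. In the other run of 8, on chromosome 6 from 15462045 to 15475482, 7 peaks overlapped a demethylated input-called peak and 0 an IgG-called one, so these places were left out of the demethylated common set at the IgG step. The next run of 7 was on chromosome 7 from 23349299 to 23374011, and 4 of its peaks had a demethylated input-called peak. In demethylated DNA the longest run held 9 peaks with 33 to 55 summit reads, on chromosome 8 from 21772470 to 21796144. None of the 9 was in the CK common set, and 2 overlapped a hypermethylated input-called peak. Runs of 8 and 7 peaks were on chromosome 10 from 11104532 to 11115051 and on chromosome 8 from 10417595 to 10441068.

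Next, the specific peaks were looked up in CK. A CK common peak overlapped 20.9% (20.2 to 21.6) of hypermethylated-specific peaks, against 63.7% of all hypermethylated common peaks. It overlapped 23.8% (23.2 to 24.5) of demethylated-specific peaks, against 61.4% of all demethylated common peaks. On the 12 chromosomes the shares ran from 18.8 to 22.6% for hypermethylated-specific and from 22.1 to 26.1% for demethylated-specific peaks. The CK common set is limited by its input-called list, and with a CK peak in either list the shares were 64.8% (63.9 to 65.6) of hypermethylated-specific and 64.9% (64.1 to 65.6) of demethylated-specific peaks, against 89.5% of all hypermethylated and 87.9% of all demethylated common peaks. The order of the sides seen with CK common peaks was thus absent with either list. It turned round when all sets were IgG-called (61.2% of hypermethylated-specific and 58.3% of demethylated-specific peaks). The shares of all IgG-called peaks are not given beside these, so this turn is a comparison of specific peaks only. In the CK lists together, 35.2% of hypermethylated-specific and 35.1% of demethylated-specific peaks had no peak, and the others were at places where unaltered DNA also gave one.

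The same peaks were looked up at pH 5.5, where their sides crossed. Hypermethylated-specific peaks of pH 7.0 were found less often in hypermethylated than in demethylated DNA at pH 5.5, and demethylated-specific peaks the other way round. With IgG-called and with common pH 5.5 peaks, all common peaks of either condition were also found more often in hypermethylated DNA at pH 5.5. Against that order, only the hypermethylated-specific peaks were reversed, and demethylated-specific peaks kept it. The input-called lists of a treatment share 1 input library between pH 7.0 and pH 5.5, whereas every IgG-called list has an IgG library of its own, so values are given for both kinds of list. An IgG-called pH 5.5 peak of hypermethylated DNA overlapped 43.3% (42.5 to 44.2) of hypermethylated-specific peaks, against 81.0% of all hypermethylated pH 7.0 common peaks. An IgG-called pH 5.5 peak of demethylated DNA overlapped 58.4% (57.5 to 59.3) of them, against 70.4% of all. Of the demethylated-specific peaks, 57.7% (57.0 to 58.5) had an IgG-called peak in hypermethylated DNA at pH 5.5, against 81.6% of all demethylated pH 7.0 common peaks. Only 29.3% (28.6 to 30.0) of them had one in demethylated DNA at pH 5.5, against 62.6% of all. An input-called peak of hypermethylated DNA at pH 5.5 overlapped 50.2% of hypermethylated-specific peaks (83.9% of all), and one of demethylated DNA 78.9% (85.7% of all). For demethylated-specific peaks the input-called shares were 55.9% (82.9% of all) and 48.9% (78.3% of all). With input-called peaks the difference between treatments was thus smaller for demethylated-specific peaks and larger for hypermethylated-specific peaks than with IgG-called peaks. All hypermethylated common peaks were then also found slightly more often in demethylated DNA at pH 5.5 (85.7% against 83.9%).

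The crossing was also seen with common peaks at pH 5.5, of which hypermethylated DNA had 82718 and demethylated DNA 75913. Hypermethylated-specific peaks were found in 40.4% of cases in hypermethylated DNA at pH 5.5 (79.4% of all) and in 59.1% in demethylated DNA at pH 5.5 (70.6% of all). Demethylated-specific peaks were found in 50.8% of cases in hypermethylated DNA (79.1% of all) and in 29.6% in demethylated DNA at pH 5.5 (62.9% of all). Among shared peaks the sides were alike, since 89.1% of hypermethylated shared peaks had an IgG-called peak in the hypermethylated pH 5.5 list and 73.0% had one in the demethylated pH 5.5 list. For demethylated shared peaks, which are largely the same places, these shares were 89.0% and 72.8%. Taking CK and both pH 5.5 sets together, the largest class of hypermethylated-specific peaks was found in demethylated DNA at pH 5.5 only (3456 peaks, 28.7%, against 8.38% of all hypermethylated common peaks). A further 2841 (23.6%, against 7.35%) were found in none of these sets. Of the demethylated-specific peaks, 5677 (33.1%, against 10.7% of all demethylated common peaks) were found in none, and 4142 (24.2%, against 11.3%) in hypermethylated DNA at pH 5.5 only. With 1 merged library a condition, the treatment and the library cannot be told apart in these shares. The label disagreement given at the opening concerns the same pH 7.0 lists. An exchange of the hypermethylated and demethylated labels at either pH would make these shares higher within a treatment than between treatments, and at pH 7.0 it would turn every side named here. Such an exchange was not tested.

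**Figure D3:**
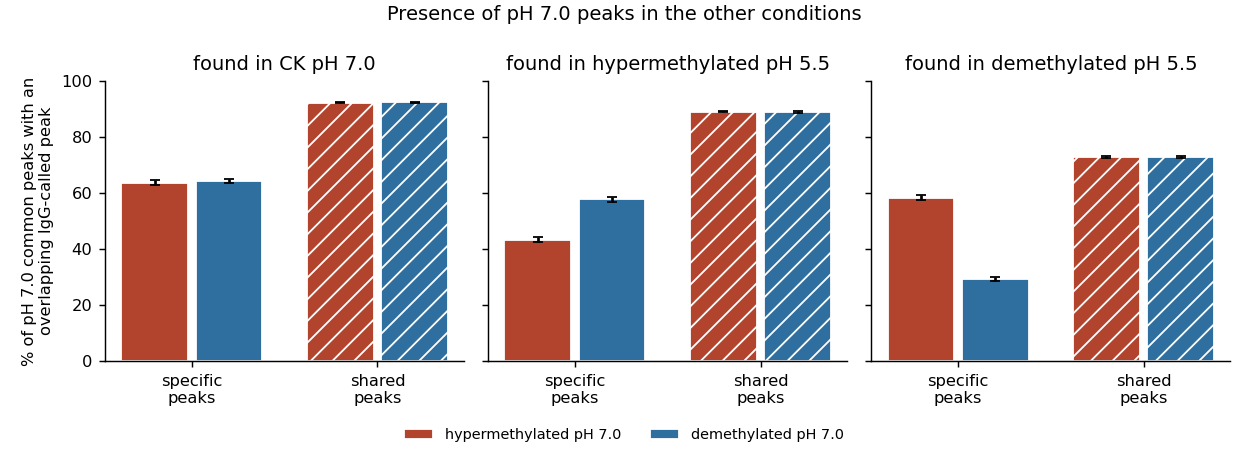
Percentage of pH 7.0 common peaks (y axis) that overlap an IgG-called peak of CK at pH 7.0, of hypermethylated DNA at pH 5.5 or of demethylated DNA at pH 5.5, for specific peaks (plain bars) and shared peaks (hatched bars), with 95% Wilson intervals. Hypermethylated-specific peaks have the lower bar in hypermethylated DNA at pH 5.5 (43.3%, against 57.7% of demethylated-specific peaks) and the higher bar in demethylated DNA at pH 5.5 (58.4%, against 29.3%).

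Single places show what the strongest specific peaks were. The hypermethylated-specific peak with the highest fold and the most summit reads was on chromosome 2 from 28719468 to 28721391 (MSU v7.0), with 25792 reads at the summit, 2258 times background, and a fold of 1417 over input. A second one, from 28716292 to 28717023, lay shortly before it, with 4548 reads and a fold of 343. At neither place was a peak found in demethylated DNA at pH 7.0, in CK or in hypermethylated DNA at pH 5.5, and demethylated DNA at pH 5.5 had input-called peaks with a fold of 4.65 and 2.34 there. On chromosome 10 from 10897422 to 10898749, a peak of 957 reads (fold 77.1) in hypermethylated DNA had no counterpart in demethylated DNA at pH 7.0, whereas CK had a peak of fold 4.78 and hypermethylated DNA at pH 5.5 one of fold 8.69 against input. Demethylated DNA at pH 5.5 had 2 input-called peaks at this place, the higher with a fold of 3.20. The pair of peaks on chromosome 4 from 9783232 to 9784030 (540 reads, fold 35.6) and from 9800883 to 9801282 (342 reads, fold 27.6) had no peak in any other condition. Because the IP libraries had been merged, it is not known whether both of them held these reads.

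Demethylated DNA had no specific peak of that height. Its highest folds without a hypermethylated counterpart were at most 6.86, on chromosome 5 from 21834464 to 21834918, with 105 summit reads (7.27 times background). A peak on chromosome 2 from 2615208 to 2615439 and another on chromosome 5 from 17710384 to 17710695 both had 102 reads and a fold of 6.67. The other 2 were on chromosome 6 from 4484876 to 4486036 (97 reads, fold 6.31) and on chromosome 5 from 27971289 to 27971522 (104 reads, fold 6.10). All 5 were common peaks in hypermethylated DNA at pH 5.5, with folds over input of 3.09, 6.32, 7.83, 4.69 and 7.39 in the order given, and each had a CK peak in 1 of the 2 CK lists. In demethylated DNA at pH 5.5, 2 of the 5 were common, those on chromosomes 2 and 6.

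Of the 3 specific peaks with the most summit reads on each side, all but the first on chromosome 2 lay where the control was high as well. In hypermethylated DNA they were on chromosome 4 from 9124901 to 9125887 (5138 reads, lambda 1337, fold 3.84) and on chromosome 8 from 22324987 to 22325444 (4549 reads, lambda 1498, fold 3.03). Both overlapped an IgG-called peak of demethylated DNA and had a CK common peak. The chromosome 2 peak from 28716292 to 28717023 had only 1 read fewer than the last of these (4548 reads), at a lambda of 12.3 near background. In demethylated DNA the 3 peaks were on chromosome 12 from 20637364 to 20637649 (709 reads, lambda 398, fold 1.78), on chromosome 9 from 4709778 to 4710369 (677 reads, lambda 357, fold 1.89) and on chromosome 12 from 20543607 to 20544114 (602 reads, lambda 274, fold 2.19). Only the chromosome 9 peak had no hypermethylated counterpart in either list.

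For shared iMs the position of the summit was compared. Of all overlapping pairs, 50715 were one-to-one, and these held 91.0% of the hypermethylated and 90.6% of the demethylated shared peaks. In 53.1% of the pairs the shorter peak lay wholly inside the longer one. The summits were a median of 24 bp apart (quartiles 8 and 66 bp), within 10 bp in 30.9%, within 50 bp in 69.3% and within 100 bp in 81.7% of pairs, and at the same base in 2.45%. They were over 200 bp apart in 5458 pairs (10.8%). The shift had no side, since the hypermethylated summit was at the higher coordinate in 49.0% and at the lower in 48.5% of pairs, and the median signed shift was 0 bp. The median distance was 22 to 25 bp on each chromosome. It was 17 bp where the wider peak of the pair was at most 300 bp wide and 76 bp where it was over 2000 bp, and it was 42 bp in the weakest and 18 bp in the strongest of 5 equal classes of pairs by relative summit coverage.

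Shared peaks were similar in width, with a median of 474 bp in hypermethylated and 480 bp in demethylated DNA. The median difference within a pair was -12 bp (hypermethylated minus demethylated), with quartiles of -85 and 58 bp, and ranged from -22 to -9 bp on the 12 chromosomes. The hypermethylated peak was the narrower in 55.04% and the wider in 44.6% of pairs. The smallest width in a list, which MACS2 sets from the fragment length in paired-end mode, was 199 bp in hypermethylated and 206 bp in demethylated DNA. With hypermethylated widths rescaled to the smallest width of the demethylated list (divided by 199 and multiplied by 206), the sign of the difference turned, to 6.04 bp. A direction therefore cannot be told apart from fragment length. In the weakest of the 5 coverage classes the difference was -28 bp and in the strongest 0 bp. A minority of peaks were split differently. Of the hypermethylated peaks, 1876 covered 2 or 3 demethylated peaks, and 1639 demethylated peaks covered 2 to 6 hypermethylated peaks. The median widths of these peaks were 1490 bp and 1476 bp.

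**Figure D4:**
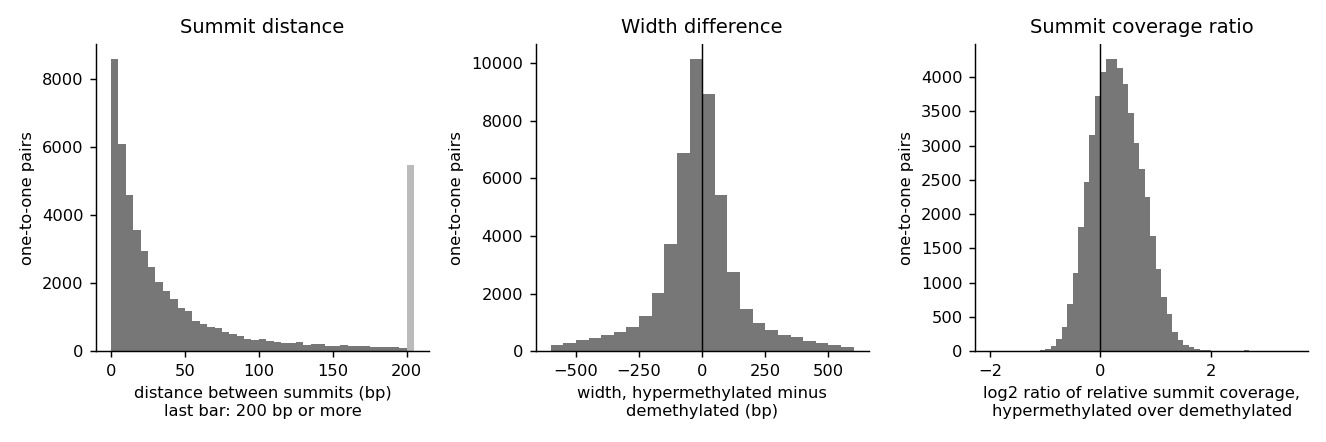
One-to-one pairs of shared peaks. The panels count pairs by the distance between the summits in bp (last bar, 200 bp or more), by the width difference in bp (hypermethylated minus demethylated, 968 pairs beyond 600 bp not drawn) and by the log2 ratio of relative summit coverage (hypermethylated over demethylated, 2 pairs outside the axis not drawn). The medians are 24 bp, -12 bp and 0.28.

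Summits of shared peaks stood higher above background in hypermethylated DNA. Relative to background coverage, the median summit of the pairs was 6.04 in hypermethylated and 4.92 in demethylated DNA, from 69 and 71 reads. The median log2 ratio within a pair was 0.28, or 1.21-fold, and 73.0% of pairs (37021) were above 0. It was 0.25 to 0.30 on the 12 chromosomes and above 0 in all 378 windows of 1 Mb with at least 20 pairs, between 0.10 and 0.47. For 2 summits with the median numbers of reads, counting error alone gives an SD of 0.24 for a single pair, compared with an observed SD of 0.46. Relative summit coverage was at least 2-fold higher in hypermethylated DNA in 3298 pairs (6.50%) and at least 2-fold lower in 29 pairs (0.0572%). This ratio compares how IP fragments are distributed within a library and not the amount of iM, which sequencing depth does not fix.

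The ratio depended on the height of the peak. In the 5 equal classes of pairs, ordered by the geometric mean of relative summit coverage in both conditions, the median log2 ratio was 0.067, 0.19, 0.28, 0.39 and 0.50 from the weakest to the strongest class. In the strongest class the median summit was 12.2 times background in hypermethylated and 8.59 times in demethylated DNA, and in the weakest class 3.41 and 3.19 times. Pairs of at least 2-fold higher coverage in hypermethylated DNA made up 1.15% of the weakest and 12.05% of the strongest class. The spread between strong and weak peaks was thus wider in hypermethylated DNA.

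The pattern at pH 5.5 was also looked for among shared pairs, which have a peak in both sets at pH 7.0. Pairs with an IgG-called peak in demethylated DNA at pH 5.5 had a median log2 ratio of 0.36 (37185 pairs), compared with 0.065 for pairs without one (13530 pairs). In each of the 5 classes the ratio was higher where demethylated DNA had a pH 5.5 peak, for example 0.34 against 0.099 in the middle class. For the pH 5.5 peaks of hypermethylated DNA it was lower where there was one in each of the 5 classes, for example 0.26 against 0.56 in the middle class, although the medians over all pairs were 0.28 with (45067 pairs) and 0.27 without (5648 pairs). Of the 29 pairs at least 2-fold lower in hypermethylated DNA, 15 had a common peak in demethylated DNA at pH 5.5 (51.7%), compared with 85.5% of the 3298 pairs at least 2-fold higher and 73.5% of all pairs. The common peaks of hypermethylated DNA at pH 5.5 did not show the opposite order, with 82.8% of the lower pairs (24 of 29), 89.8% of the higher pairs and 87.5% of all pairs. These groups were not matched for height, and pairs at least 2-fold higher were more frequent in the stronger classes. An IgG-called pH 5.5 peak of demethylated DNA was found for 50.0% of the weakest and 90.6% of the strongest class. The shares of the groups are therefore not separate from height.

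**Figure D5:**
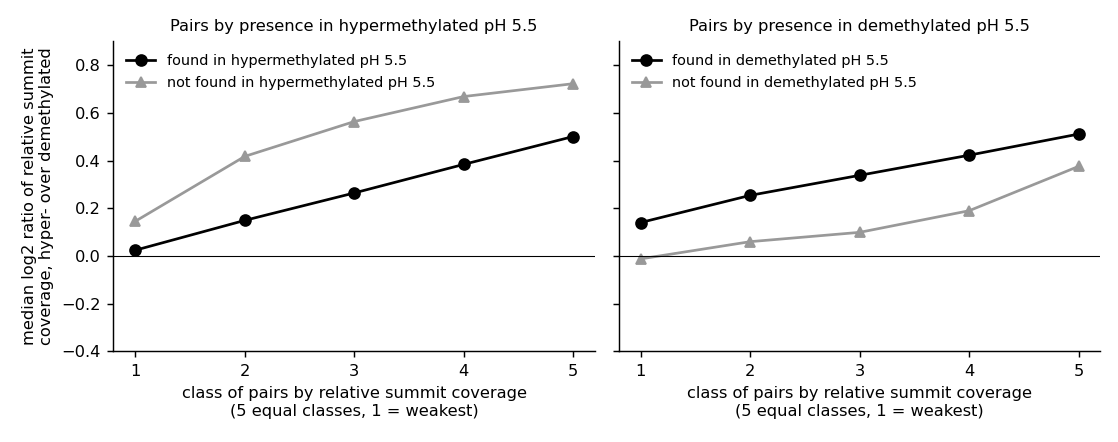
Median log2 ratio of relative summit coverage of shared pairs at pH 7.0 (y axis, hypermethylated over demethylated) in 5 equal classes of pairs by relative summit coverage (x axis, 1 is the weakest), for pairs with and without an overlapping IgG-called peak in hypermethylated DNA at pH 5.5 (left) or in demethylated DNA at pH 5.5 (right). Pairs that were found have the lower median for hypermethylated DNA at pH 5.5 and the higher median for demethylated DNA at pH 5.5, in all 5 classes.

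Among the 37553 pairs with summits within 100 bp and at least 50 reads in either condition, the extremes were a few places with a several-fold difference. The highest ratio was on chromosome 2 from 14283734 to 14284287, with 9232 reads in hypermethylated and 1247 in demethylated DNA (log2 ratio 3.23) and lambda at 382 and 199. On chromosome 10 from 10896510 to 10897057, the summit held 519 reads in hypermethylated and 71 in demethylated DNA (3.21) with lambda at background. This peak lay next to the hypermethylated-specific peak of fold 77.1 described above. The third was on chromosome 12 from 20925916 to 20926564, with 6680 and 920 reads (3.20) and lambda at 1655 and 292. The lowest ratios were on chromosome 3 from 29573156 to 29573647, with 29 reads in hypermethylated and 148 in demethylated DNA (-2.01), on chromosome 11 from 20571001 to 20571223, with 35 and 137 reads (-1.63), and on chromosome 3 from 20671591 to 20671852, with 43 and 130 reads (-1.26). At these 3 places lambda was at background in both, and the hypermethylated peaks were 492, 223 and 262 bp wide against 634, 518 and 471 bp in demethylated DNA.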

How the data were processed

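The iM-IP-seq reads had been aligned by the authors to rice MSU v7.0. For each condition they merged both IP libraries, then ran MACS2 2.1.1 in paired-end mode with input and with IgG as control. BWA, SAMtools, Picard and MACS2 are named in the submitters' processing notes. Each of the 10 deposited peak lists gives a fold enrichment (the ratio of pileup to the local control level), a −log10 p-value, a −log10 q-value, an integer score that is 10 times the −log10 q-value without its decimals and a summit offset, all as the authors deposited them. The score was not used further.

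Read numbers at the summits and the local control level (lambda) were solved from the deposited fold and −log10 p-value, with agreement within 0.01 for 100% of peaks in the 4 pH 7.0 lists of treated DNA. The lowest lambda is the background coverage. The solution and the overlaps (against bedtools 2.31.1) were tested on simulated data. Python 3.11.15, numpy 2.4.6, pandas 2.3.3 and scipy 1.17.1 were used. Gaps between peaks were computed between peak edges. Distances from chromosome ends and within shared pairs were computed from summits, and coordinates are 1-based.

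No test was run, since each condition is 1 merged library. Intervals are 95% Wilson intervals and cover counting error only. The named peaks are, on each side, the 5 specific peaks with the highest fold and no peak in either list of the other condition, the 3 with the most summit reads, the 3 longest runs (ties by position), the 3 highest and 3 lowest windows with at least 30 specific peaks, and the 3 highest and 3 lowest pairs with summits within 100 bp and at least 50 reads in either condition. The members, the rules and the alternatives were chosen with earlier results of these data known. Genes and sequences at the peaks were not analysed here for lack of a matching genome build.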

Additional observations from a re-analysis of the deposited data

Results flagged for a closer look

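The balance of specific peaks between the treatments pointed in opposite directions at the 2 pH values. The log2 ratio of hypermethylated-specific over demethylated-specific peaks was -0.51 at pH 7.0 (12045 and 17147 peaks) and 0.31 at pH 5.5 (33926 and 27420 peaks). The direction at either pH depended on the peaks admitted. With a fold of at least 4 the ratio was 1.93 at pH 7.0 and -0.80 at pH 5.5, with all input-called peaks -0.92 and -1.05, and with all IgG-called peaks -0.65 and 0.48. With lambda at most 1.2 times background it was 0.19 at pH 7.0, and this was not run at pH 5.5. The fold limit at both pH values and the lambda limit at pH 7.0 were applied before the overlap, so peaks whose counterpart was filtered out counted as specific. With the fold limit, demethylated-specific peaks at pH 5.5 thus rose from 27420 to 27820. Both values rest on 1 merged library a condition and share the input library of each treatment between the pH values, and the difference was not tested.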

How the results depend on the processing

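The alternatives gave 76 values for the 11 planned results and 8 for the log2 ratio of specific peaks. Most kept within the counting interval, the spread over chromosomes (1 SD) or 1.5 times the count. With all input-called peaks, 18.3% of hypermethylated-specific and 20.2% of demethylated-specific peaks were found in CK, 18.5% of hypermethylated-specific peaks were next to a specific peak and the log2 ratio of specific peaks was -0.92. With all IgG-called peaks these values were 61.2%, 58.3%, 29.9% (demethylated-specific peaks next to a specific peak) and -0.65, the width difference was -2 bp and the coverage ratio 0.26. With a −log10 q-value of at least 5, 17.01% and 19.8% were found in CK, summits were 22 bp apart, the coverage ratio was 0.29, 25.3% of demethylated-specific peaks were next to a specific peak and the log2 ratio of specific peaks was -0.34. In the settings above, the shares of all peaks found in CK are not given beside those of specific peaks. With any CK peak, 64.8% and 64.9% were found, against 89.5% of all hypermethylated and 87.9% of all demethylated common peaks. Every overlapping pair gave a summit distance of 27 bp, and means gave 77.5 bp and a coverage ratio of 0.30. Within 5 Mb of an end were 31.1% of hypermethylated-specific peaks, against 29.2% of all hypermethylated common peaks. For demethylated-specific peaks it was 29.6% (28.9 to 30.3), against 29.0% of all demethylated common peaks, a share inside that interval. Of hypermethylated-specific peaks, 21.5% had a specific peak to the right. Sharing defined by an overlap of 50% or more of the shorter peak, and demethylated lists scaled to the hypermethylated coverage (reads and lambda multiplied alike, without added counting noise), moved none of the values.

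Chosen after seeing the data, a specific peak without any counterpart gave 7808 hypermethylated-specific peaks and a log2 ratio of -0.82. A fold of at least 4 gave 3819 demethylated-specific peaks and turned the ratio to 1.93. Lambda at most 1.2 times background gave 20824 hypermethylated-specific peaks and turned it to 0.19. Both limits were applied before the overlap, so these counts include peaks whose counterpart was filtered out. Hypermethylated widths rescaled to the smallest width of the demethylated list turned the difference to 6.04 bp. The coverage ratio was 0.32 from the fold and 0.36 for pairs with lambda at most 1.2 times background. At pH 5.5, all input-called peaks and a fold of at least 4 turned the log2 ratio of specific peaks to -1.05 and -0.80. The fold limit was applied before the overlap at pH 5.5 as well. The causes were not tested. No paired analysis was possible because the authors merged the replicates before calling peaks, so no replicate could be left out either.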

Other observations

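Windows of 1 Mb with more common peaks had a lower log2 ratio of hypermethylated-specific over demethylated-specific peaks (Pearson r = -0.38, Spearman rho = -0.39 over 375 windows of the same 2 merged libraries, given as a description). Shared pairs without a CK common peak were narrower, with a median of 384 bp in hypermethylated and 392 bp in demethylated DNA, against 515 bp and 524 bp for pairs with one. Their median log2 ratio of relative summit coverage was 0.25, compared with 0.29 for pairs with a CK common peak.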
